A study of Mus musculus with 6 samples.

Results

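The mitochondrial ribosome was described here through 72 genes, taken from the 16139 gene symbols that the array annotation gives as the only name of a probe set. They are all the symbols that start with Mrpl or Mrps and go on with a number. The rule used names and no measured value. Livers of 6 male mice, 6 to 8 weeks old, were snap-frozen, and their RNA was hybridised to Affymetrix exon arrays, which carry short probe sets along the exons of a gene, with 1 array per mouse. The 3 controls are labelled wild type and the 3 mutants Dhx32-/-, homozygous for a mutation of Dhx32, which encodes an RNA helicase of the DEAH-box type. The labels name no batch and do not describe the mutation further. The study asked which transcripts, and which of their exons, differ between the livers.

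Mitochondria keep a small genome whose messenger RNAs encode core subunits of the respiratory chain, and they translate them on ribosomes of their own. The ribosomal RNAs come from the mitochondrial genome, but every protein of the mitochondrial ribosome is encoded in the nucleus, made in the cytosol and imported. Many of these proteins descend from bacterial ribosomal proteins, and the others were added in the mitochondrial lineage. Liver is rich in mitochondria, and hepatocytes depend on oxidative phosphorylation for the synthesis of urea, glucose and plasma proteins.

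The array held 470 probe sets for the 72 genes, and 462 of them had a mean log2 signal of at least 3 in a group. A gene's value was the mean of its kept probe sets, with at least 2 required. Of the 72 genes 71 were tested, and the number of kept probe sets per gene ran from 2 to 12 with a median of 6. The missing gene was Mrpl27, whose only probe set with a single gene name lay below the minimum. The 71 genes were made up of 44 proteins of the large subunit, which holds the peptidyl transferase centre, 26 of the small subunit, which decodes the messenger, and Mrps36, which is now known as a part of the 2-oxoglutarate dehydrogenase complex. The large subunit genes divided into 28 with a bacterial counterpart and 16 classed as mitochondria-specific, and the small subunit genes into 16 and 10. Mrps18a and Mrps18b were classed as mitochondria-specific, although they are paralogues of a bacterial protein. Mrps18a and Mrps30 carry small subunit names, but their proteins sit in the large subunit and were counted there.

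The promoters of these genes share letters that the rule did not use, and several are shared with a neighbouring gene. Promoters from RefSeq (250 bases before to 50 after a start site, GRCm38.p6) were matched by symbol for 63 of the 72 genes, giving 69 promoters, and were set beside the 15176 promoters of all genes tested. Searched on both strands, CCGGAAG, the core bound by ETS factors such as GABPA, was found in 33.3% of the 69 promoters, in 13.2% of those of tested genes and in 8.86% of all 32851 promoters in the table. GCCATNTT, the letters bound by YY1, occurred in 27.5% against 6.73% and 6.05%. The NRF1 palindrome (GCGC, any 2 bases, GCGC) occurred in 17.4% against 10.3% and 6.23%. None of the 3 motifs contains another, and 43 of the 63 genes (68.3%) held at least 1 of them. By promoter the share was 62.3%, against 26.2% for tested genes. GGGCGG, the GC box bound by SP factors, was about as common here (52.2%) as in tested genes (53.6%), and the GC content was alike (medians of 58.3% and 58.7%). The dinucleotide CG was more frequent, with a median of 22 per promoter against 17 in tested genes. CCGGAAG and the NRF1 palindrome contain CG, and its part in their shares was not tested. TATAAA was found in 7.25% and 10%, and the E-box CACGTG, the element read by clock and MYC-type factors, in 10.1% and 8.86%. A match is a description of the letters and does not show that a factor was bound in these livers.

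Of the 63 genes 25 (39.7%) had a gene on the other strand whose start site lay within 1000 bases and pointed away, against 16.0% of the 12026 tested genes with a promoter. Those neighbours include other genes of mitochondrial gene expression, so the bases between the start sites of such pairs are shown, 5′ to 3′ on the plus strand of GRCm38.p6, with matches to CCGGAAG (read as CTTCCGG on this strand) or the NRF1 palindrome in capitals. Mrpl43 and Twnk, which encodes the helicase of mitochondrial DNA replication, are 115 bases apart at chr19:45006443-45006557. Mrps27 and Ptcd2, which encodes a pentatricopeptide repeat protein of mitochondrial RNA metabolism, are 107 bases apart at chr13:99344679-99344785. Mrps18c and Helq, a DNA repair helicase, are 158 bases apart at chr5:100798601-100798758, and Mrpl32 and Psma2, a subunit of the proteasome, 204 bases at chr13:14613038-14613241. The last pairs hold none of the 3 motifs between the start sites and are shown for their partners. Mrps11 and Mrpl46, proteins of opposite subunits, are 41 bases apart at chr7:78783090-78783130, and Mrps12 and Sars2, the mitochondrial seryl-tRNA synthetase, 146 bases at chr7:28741822-28741967.
Mrpl43-Twnk: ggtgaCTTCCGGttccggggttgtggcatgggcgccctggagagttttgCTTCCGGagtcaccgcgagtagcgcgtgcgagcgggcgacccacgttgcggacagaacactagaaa
Mrps27-Ptcd2: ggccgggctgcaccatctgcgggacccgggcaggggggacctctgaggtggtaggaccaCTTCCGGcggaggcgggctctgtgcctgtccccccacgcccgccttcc
Mrps18c-Helq: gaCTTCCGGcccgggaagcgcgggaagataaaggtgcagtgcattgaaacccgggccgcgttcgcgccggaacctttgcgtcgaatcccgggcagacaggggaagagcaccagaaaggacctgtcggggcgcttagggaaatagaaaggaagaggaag
Mrpl32-Psma2: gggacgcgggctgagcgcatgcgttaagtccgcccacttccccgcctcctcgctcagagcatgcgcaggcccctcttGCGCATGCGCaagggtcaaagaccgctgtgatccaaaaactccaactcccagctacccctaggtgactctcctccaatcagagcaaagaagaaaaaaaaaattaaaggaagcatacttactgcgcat
Mrps11-Mrpl46: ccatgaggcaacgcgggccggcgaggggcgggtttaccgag
Mrps12-Sars2: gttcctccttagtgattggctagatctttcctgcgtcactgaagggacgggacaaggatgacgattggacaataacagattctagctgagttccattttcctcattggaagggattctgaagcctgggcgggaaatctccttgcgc

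Upstream sequences of 2 genes whose values are given below are shown for comparison, each 250 bases before the start site in GRCm38.p6 on the strand of the gene, here plus for both. Mrpl20 (chr4:155802628-155802877) holds the E-box CACGTG, in capitals, and Mrpl51 (chr6:125191950-125192199) holds CCGGAAG, in capitals.
Mrpl20: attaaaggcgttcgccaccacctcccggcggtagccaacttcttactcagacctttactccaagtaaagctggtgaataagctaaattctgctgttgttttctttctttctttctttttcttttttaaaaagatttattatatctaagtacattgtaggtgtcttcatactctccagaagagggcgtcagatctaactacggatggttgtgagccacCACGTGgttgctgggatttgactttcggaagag
Mrpl51: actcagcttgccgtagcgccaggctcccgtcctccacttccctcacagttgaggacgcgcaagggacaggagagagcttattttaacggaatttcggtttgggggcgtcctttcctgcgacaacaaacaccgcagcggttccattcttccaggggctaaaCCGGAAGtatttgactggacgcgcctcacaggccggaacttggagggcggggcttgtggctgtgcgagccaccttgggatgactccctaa

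The labels were checked on the targeted gene. The mean of Dhx32 lay at 8.28, 8.85 and 8.62 on the log2 scale in controls 1 to 3 and at 6.35, 6.60 and 7.04 in mutants 1 to 3, so every mutant lay below every control. The difference was -1.92 (SE 0.23), with an adjusted p of 0.183 in limma on gene means and of 2.01e-14 for exon usage. Only 1 gene of 15045, Zfp874a, passed the threshold of 0.05 on gene means. Hepatocyte markers were high on every array, with Alb between 13.64 and 14.05. Mutant 1 stood apart from the other arrays, with correlations of 0.935 to 0.940 against 0.960 to 0.973 among the other 5. The acute phase genes moved with it: 10 of 12 were tested, and all 10 had a higher mutant mean, as 47.5% of all genes did. Their mean level was 10.69 to 10.96 in controls, 13.25 in mutant 1 and 11.94 and 11.48 in mutants 2 and 3. The neutrophil marker list (8 of 10 tested, 6 higher and 2 lower) had a mean level of 4.57 to 4.81 in controls and 5.51, 4.78 and 4.63 in mutants. The stellate cell list (6 of 7 tested, 2 higher and 4 lower) had 7.56 to 7.88 in controls and 6.91, 7.35 and 7.76 in mutants. Its genes did not move together: Reln, Lrat and Ecm1 differed by -0.93, -0.85 and -0.69, and Pdgfrb, Des and Hand2 by -0.03, 0.13 and 0.09. In the adipocyte list (7 of 7 tested) 6 were higher, and 3 were higher at an unadjusted p under 0.05 in limma, against 2.01% of all genes. Its mean level was 6.14 to 6.49 in controls and 6.51, 6.76 and 7.0 in mutants, and its median difference of 0.53 was 0.57 without mutant 1. The endothelial list (7 of 7 tested, 2 higher and 5 lower) had 8.62 to 9.23 in controls and 8.85, 8.28 and 9.20 in mutants. Within it Lyve1 ranged from 5.95 on mutant 2 to 8.42 on mutant 1. The part of these lists in the results that follow was not tested. In bulk liver, fewer cells of a type and less RNA per cell cannot be told apart.

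No mitochondrial ribosomal protein gene differed between mutant and control livers past the threshold. On gene means 0 of the 71 had an adjusted p under 0.05 in limma, against 0.00665% of all genes, and their adjusted p values ran from 0.943 to 0.996. At an unadjusted p under 0.05 there was 1 gene, Mrpl1, lower in mutants, against 4.21% of all genes (2.01% higher and 2.20% lower). The mutant mean was higher for 38 genes and lower for 33, and it was higher for 47.5% and lower for 52.5% of all genes. The median difference, mutant minus control, was 0.02 on the log2 scale, and over all genes it was -0.01. For 55 of the 71 (77.5%) the difference was under 0.25 in size, as it was for 73.7% of all genes. The single differences ran from -0.58 (Mrpl1) to 0.64 (Mrpl20). The groups did not overlap for 2 genes with mutants higher (background 5.15%) and 3 with mutants lower (background 4.32%).

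**Figure D1:**
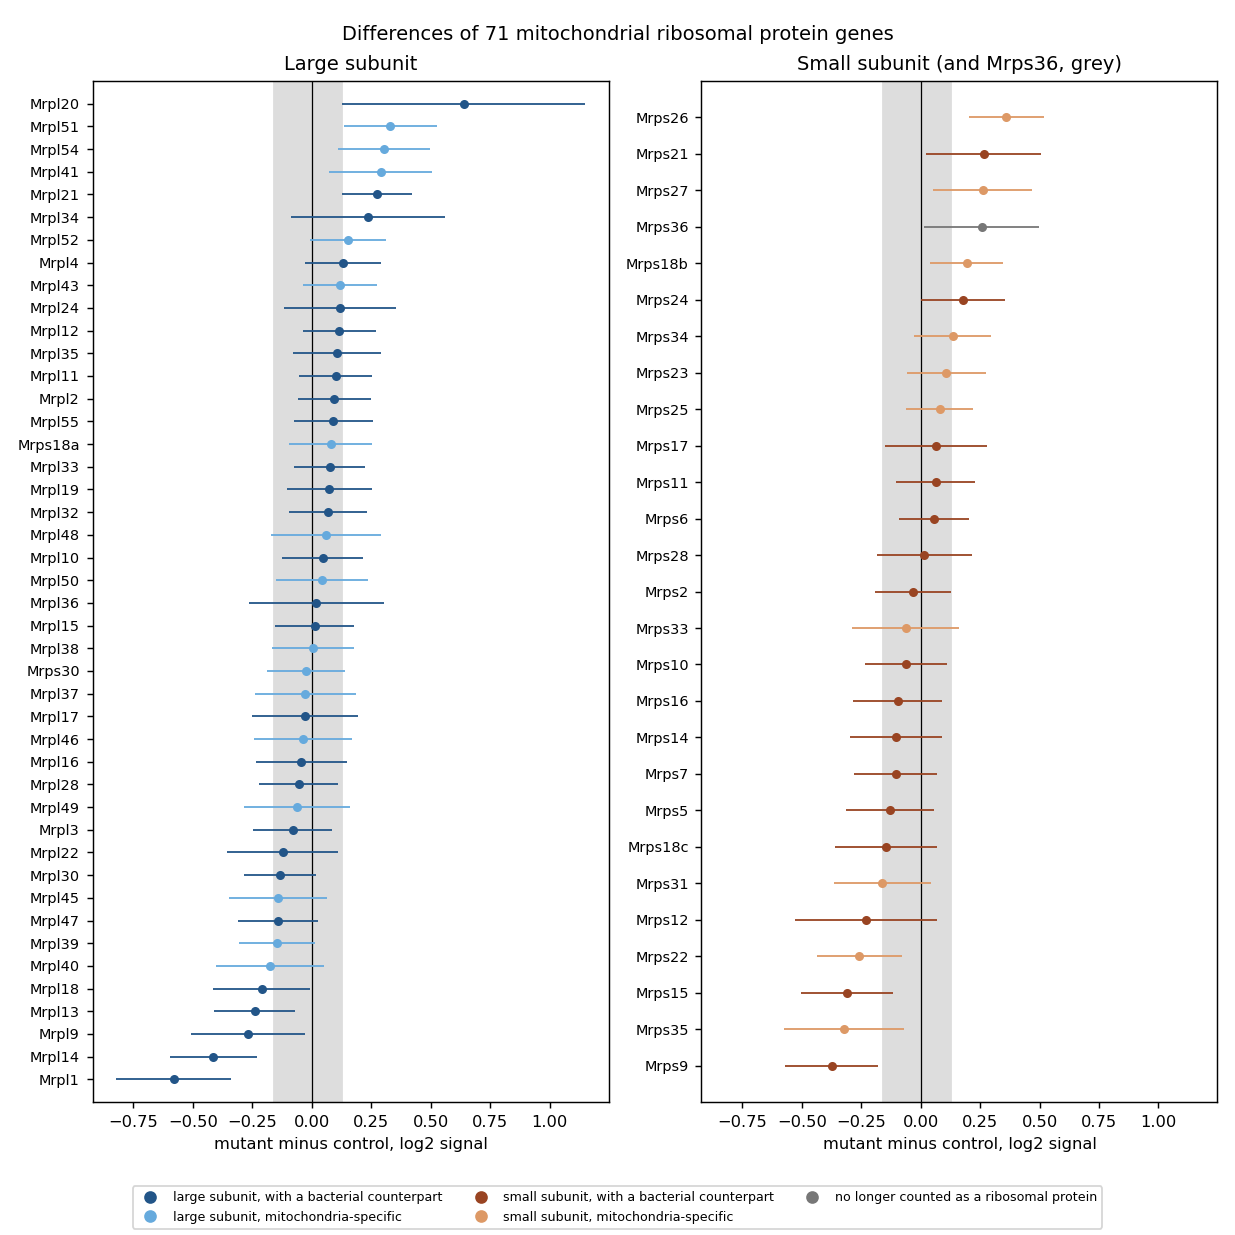
Difference in mean log2 signal, mutant minus control (n = 3 each), for each of 71 genes, large subunit on the left and small subunit with Mrps36 on the right. Points are differences of gene means, bars are SE from limma, colours give the class, and the grey band is the middle part of all genes, from the 25th to the 75th percentile (-0.16 to 0.13); most points lie in or near it, with Mrpl20 highest and Mrpl1 lowest.

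Both subunits had medians near 0. Among the 44 large subunit genes 25 had a higher and 19 a lower mutant mean, with a median difference of 0.03. Among the 26 small subunit genes the counts were 12 and 14, with a median of -0.05. By class, the medians were 0.03 for the 28 large subunit genes with a bacterial counterpart and 0.02 for the 16 classed as mitochondria-specific, and -0.08 and 0.09 for the 16 and 10 small subunit genes. The 3 genes of the stalk that recruits elongation factors and of its base had a median of 0.10, the 5 of the central protuberance -0.04, and the 4 around the exit tunnel, through which the nascent protein leaves, -0.13. The 11 tested genes in which mutations cause inherited human disease had a median of -0.03. Without mutant 1 the medians that were below 0 turned, to 0.02 for the small subunit, 0.01 for its genes with a bacterial counterpart, 0.07 for the central protuberance, 0.01 for the exit tunnel and 0.02 for the disease genes. None of these groups held a gene past the threshold.

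The gene with the smallest p was Mrpl1, whose protein forms part of the mobile stalk beside the exit site for tRNA. It lay at 9.37, 9.47 and 9.59 in controls and at 8.33, 9.18 and 9.17 in mutants. All mutants were below all controls, and mutant 1 was lowest by a wide step. The difference was -0.58 (SE 0.24), a 1.5-fold lower mean, with an unadjusted p of 0.042 and an adjusted p of 0.943 in limma. Without mutant 1 it was -0.30. All 7 of its probe sets had a lower mutant mean, from -0.92 to -0.29, and mutant 1 was the lowest array for all 7. For 6 of them the groups did not overlap, as for 4.44% of all kept probe sets with mutants lower. For comparison, every kept probe set was lower in 4 of the 71 genes (5.63%) and in 6.89% of all genes.

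Mrpl14, at the face of the large subunit that meets the small one and beside the site where an assembly factor holds the subunits apart, lay at 8.13, 8.24 and 8.21 in controls and at 7.56, 7.65 and 8.13 in mutants. Mutant 3 lay just under control 1, and mutants 1 and 2 well below. The difference was -0.41 (SE 0.18, adjusted p 0.943 in limma). One probe set carried most of it, 5331624 at 6.40, 8.18 and 8.15 in controls and 6.36, 6.30 and 7.27 in mutants, where control 1 was as low as the mutants. Mrps9, whose bacterial counterpart reaches the tRNA in the peptidyl site, lay at 7.22, 7.50 and 7.23 in controls and at 6.57, 7.15 and 7.09 in mutants. Again no mutant reached the controls and mutant 1 was lowest, with a difference of -0.37 (SE 0.20), or -0.19 without mutant 1. Of its 11 kept probe sets 10 had a lower mutant mean.

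Mrps15, Mrps22 and Mrpl13 completed the lower side by smallest p, and their groups overlapped. Mrps15, the counterpart of a bacterial protein that binds ribosomal RNA early in assembly, lay at 9.31, 9.23 and 9.36 in controls and at 8.60, 9.25 and 9.11 in mutants. Mutant 1 alone was far below, and mutant 2 lay within the control range. Mrps22, a mitochondria-specific protein in which inherited mutations cause disease, lay at 8.49, 8.45 and 8.65 in controls and at 8.01, 8.25 and 8.56 in mutants, with mutant 3 among the controls. Mrpl13 lay at 7.67, 7.60 and 8.00 and at 7.37, 7.50 and 7.67. Its counterpart in bacteria is an early assembly protein of the large subunit. The differences were -0.31 (SE 0.19), -0.26 (SE 0.18) and -0.24 (SE 0.17), and mutant 1 was the lowest array for all 3 genes. Without mutant 1 the differences of Mrps15 and Mrps22 were -0.12 (-0.115) and -0.13, and without mutant 3 that of Mrps22 was -0.40. That of Mrpl13 was -0.12 without control 3, and with array weights that of Mrps15 was -0.17.

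On the higher side the smallest p belonged to Mrps26, a mitochondria-specific protein of the small subunit. It lay at 7.62, 7.47 and 7.63 in controls and at 8.13, 7.76 and 7.91 in mutants. Every mutant was above every control, with mutant 1 highest. The difference was 0.36 (SE 0.16), a 1.28-fold higher mean, with an unadjusted p of 0.051 and an adjusted p of 0.943 in limma, and all 5 probe sets had a higher mutant mean (0.24 to 0.68). Every kept probe set was higher in 9 of the 71 genes (12.7%) and in 6.77% of all genes. Mrpl21, the counterpart of a bacterial large subunit protein, lay at 7.13, 6.99 and 7.05 in controls and at 7.18, 7.48 and 7.34 in mutants. Mutant 1 was only just above control 1, and the difference was 0.27 (SE 0.15). That value was 0.15 without mutant 2, 0.12 with a signal minimum of 5 and 0.06 with the median of the probe sets. It shares its start region with Ighmbp2, a helicase gene 31 bases away, whose difference was 0.12 (SE 0.14).

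The other genes named on this side overlapped between the groups because control 1 was high. Mrpl51 lay at 8.84, 8.19 and 8.26 in controls and at 8.81, 8.72 and 8.76 in mutants, so the mutants were close together and control 1 lay above them all. Mrpl41, a mitochondria-specific protein of the large subunit, lay at 7.78, 7.16 and 7.0 and at 7.51, 7.72 and 7.58, with the same array high among the controls. Mrpl54 lay at 7.70, 7.24 and 7.46 and at 8.07, 7.65 and 7.60. Here mutant 1 was highest, and control 1 lay among the mutants. Mrps18b lay at 9.45, 9.35 and 9.14 and at 9.49, 9.42 and 9.60, and all 8 of its probe sets had a higher mutant mean. The differences of these 4 genes were 0.33 (SE 0.20), 0.29 (SE 0.22), 0.30 (SE 0.19) and 0.19 (SE 0.15). Single controls moved them: Mrpl51 stood at 0.54 without control 1 and 0.21 without control 2, and Mrps18b at 0.10 without control 3. Mrpl41 stood at 0.52 without control 1, 0.44 with array weights and 0.13 without control 3. Mrpl54 stood at 0.19 without control 2, at 0.16 without mutant 1 and at 0.03 with the median of its probe sets.

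**Figure D2:**
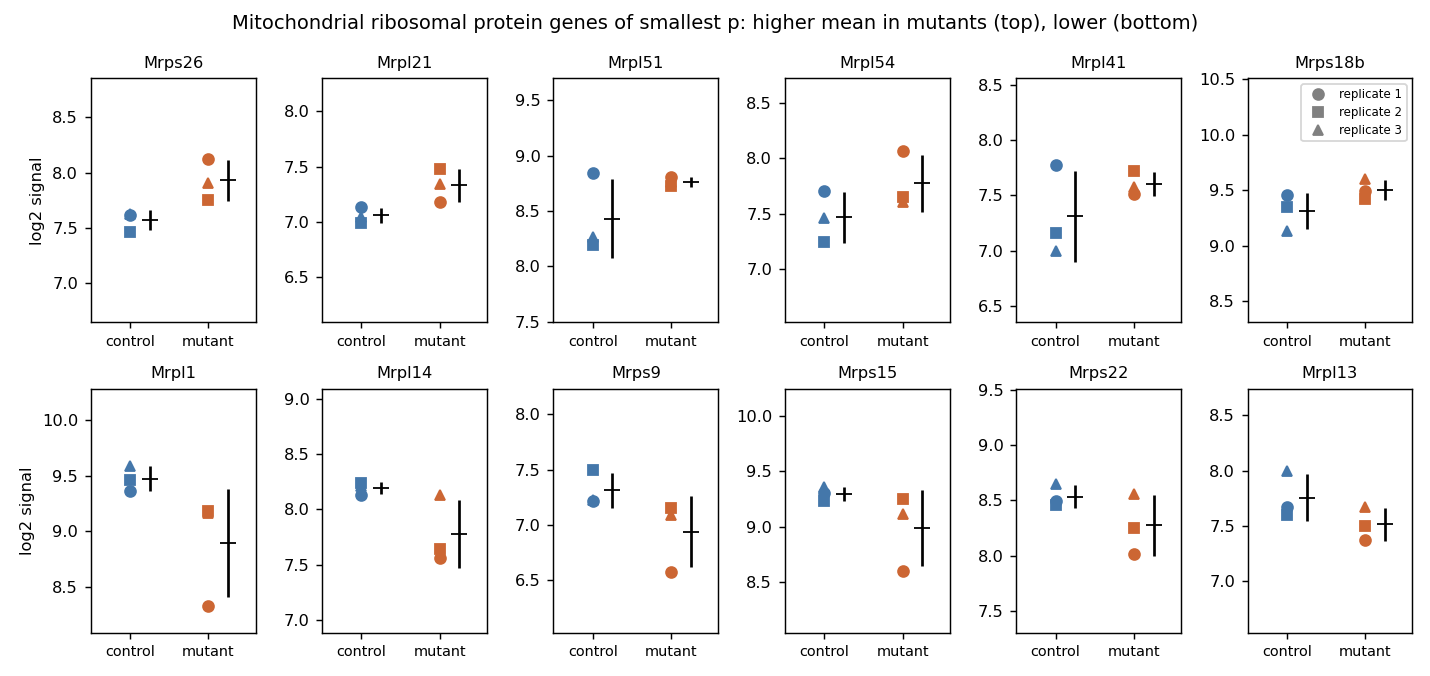
Log2 signal of each array for the 6 genes with a higher mutant mean (top) and the 6 with a lower one (bottom) that had the smallest p in limma, each panel spanning the same range. Symbols mark the replicate, dashes the group mean and bars the SD (n = 3); the groups do not overlap for Mrps26, Mrpl21, Mrpl1, Mrpl14 and Mrps9, and mutant 1 (circle) is the lowest array of every gene in the bottom row.

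Mammals have 3 paralogues of a single bacterial small subunit protein. Mrps18c sits where the bacterial protein does, Mrps18b elsewhere in the small subunit, and Mrps18a in the large subunit. Mrps18a lay at 8.76, 8.33 and 8.37 in controls and at 8.57, 8.41 and 8.72 in mutants, a difference of 0.08 (SE 0.17). Mrps18c lay at 9.99, 9.67 and 9.59 and at 9.27, 9.98 and 9.56, a difference of -0.15 (SE 0.21). Both overlapped throughout, and the difference of Mrps18c took the other sign (0.02) without mutant 1. Of the 3 paralogues only Mrps18b had a higher mutant mean in all its probe sets.

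Genes picked for their roles also stayed within the spread of the replicates. Mrps12, a protein of the decoding centre, lay at 6.74, 7.72 and 7.55 in controls and at 6.86, 6.88 and 7.58 in mutants. Control 1 and mutants 1 and 2 were low, and control 2, control 3 and mutant 3 were high, so the split did not follow the groups (difference -0.23, SE 0.30; -0.53 to -0.04 on leaving out 1 array). Mrpl12, which forms the flexible stalk and has also been described as a partner of the mitochondrial RNA polymerase, lay at 8.82, 8.65 and 8.70 and at 9.02, 8.71 and 8.78. Its difference was 0.12 (SE 0.15), with mutant 1 highest, and 0.02 without it. Mrpl45, which anchors the ribosome to the inner membrane near the exit tunnel, lay at 8.17, 7.92 and 7.89 and at 7.47, 7.91 and 8.18. Mutant 1 was the lowest array, and the difference of -0.14 (SE 0.21) became 0.05 without it.

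The spread within groups was like that of other genes, with a median residual SD of 0.22 against 0.23 over all genes. Mrps25, a mitochondria-specific small subunit protein, was the tightest gene. It lay at 7.62, 7.63 and 7.43 in controls and at 7.63, 7.62 and 7.68 in mutants, with a residual SD of 0.08. Mrpl20, the counterpart of a bacterial protein needed early in large subunit assembly, was the widest, with a residual SD of 0.86.

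Mrpl20 lay at 8.21, 6.07 and 6.26 in controls and at 7.62, 7.68 and 7.15 in mutants. Control 1 was the highest of all arrays and controls 2 and 3 the lowest, so the difference of 0.64 (SE 0.51) came with a wide overlap. Probe set 4791939 lay at 10.23, 7.96 and 8.11 and at 10.58, 9.18 and 9.26. Probe set 5169130 lay at 6.96, 3.09 and 3.56 and at 5.54, 6.98 and 5.12. Both were low on controls 2 and 3 and higher on control 1 and on every mutant, as were 5606548, 5458450 and 4454752. Probe set 4385855 lay at 7.62, 7.12 and 7.08 and at 7.36, 7.20 and 7.30, and 4847150 at 7.37, 6.98 and 7.28 and at 7.69, 6.84 and 7.31, so these 2 varied by less than 1 unit across the arrays, whereas the others ranged over 1.35 to 4.7 units. The difference of the gene was 1.32 without control 1, 0.25 without control 2 and 0.35 without control 3, and with the median of its probe sets it was 0.06. Some clock output genes also split the controls. Nr1d1, a repressor of the circadian clock, lay at 9.13, 10.91 and 10.66 in controls and at 7.30, 8.14 and 10.50 in mutants. Dbp lay at 7.29, 8.93 and 8.71 and at 6.90, 6.91 and 8.74. Control 1 was not the lowest control for Arntl, Per2 and Npas2 of the same list. Arntl lay at 8.40, 8.04 and 8.20 in controls and at 8.00, 8.44 and 7.34 in mutants. Per2 lay at 6.88, 6.70 and 6.80 and at 6.57, 6.61 and 6.89. Over the 9 tested clock genes of 10 listed, the mean level was 7.51, 8.20 and 8.18 in controls and 7.09, 7.33 and 8.07 in mutants. On mutant 3 the clock genes had a mean level of 8.07, and Mrpl20 lay at 7.15. The part of the clock genes in the Mrpl20 values was not tested.

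**Figure D3:**
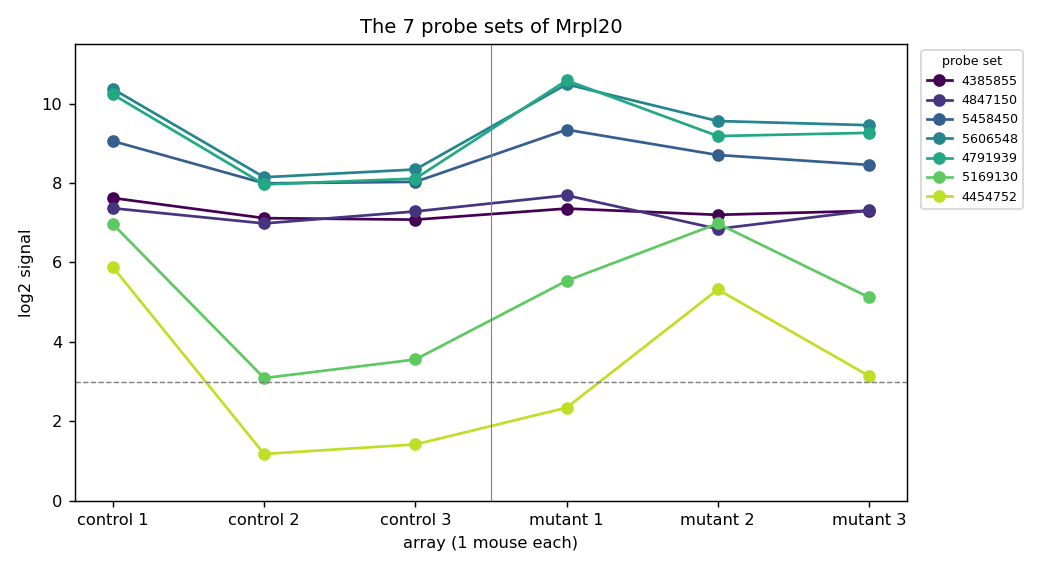
Log2 signal of the 7 probe sets of Mrpl20 on each of the 6 arrays, 1 mouse each, with controls left and mutants right of the vertical line and the signal minimum of 3 dashed. Of the 7 lines 5 are high on control 1, low on controls 2 and 3 and above those 2 on every mutant, whereas 4385855 and 4847150 stay between 6.84 and 7.69.

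The same order of arrays, control 1 and all mutants above controls 2 and 3, was found for 13 of the 71 genes (18.3%) and for 8.82% of all genes. They were Mrpl12, Mrpl20, Mrpl21, Mrpl33, Mrpl41, Mrpl51, Mrpl52, Mrpl54, Mrps18a, Mrps18b, Mrps21, Mrps24 and Mrps36. The pattern was chosen after the values were seen and carries no test. By array, control 1 was the lowest for 1 gene (1.41%, against 12.2% of all genes), and mutant 3 was the highest for 26 (36.6% against 24.9%) and the lowest for 2 (2.82% against 9.13%). Mutant 1 was the lowest for 27 (38.0% against 32.8%). Measured from each gene's control mean, the median gene lay at 0.03, -0.01 and -0.05 on controls 1 to 3 and at -0.03, -0.08 and 0.16 on mutants 1 to 3. Over all genes those medians were -0.01, 0.02 and 0.00 (-0.002) and -0.06, -0.04 and 0.07. Mutant 3 was the highest array on both counts, and mutants 1 and 2 lay below 0 on both. Without mutant 1 the median difference was 0.06, and 14 of the 71 genes took the other sign.

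**Figure D4:**
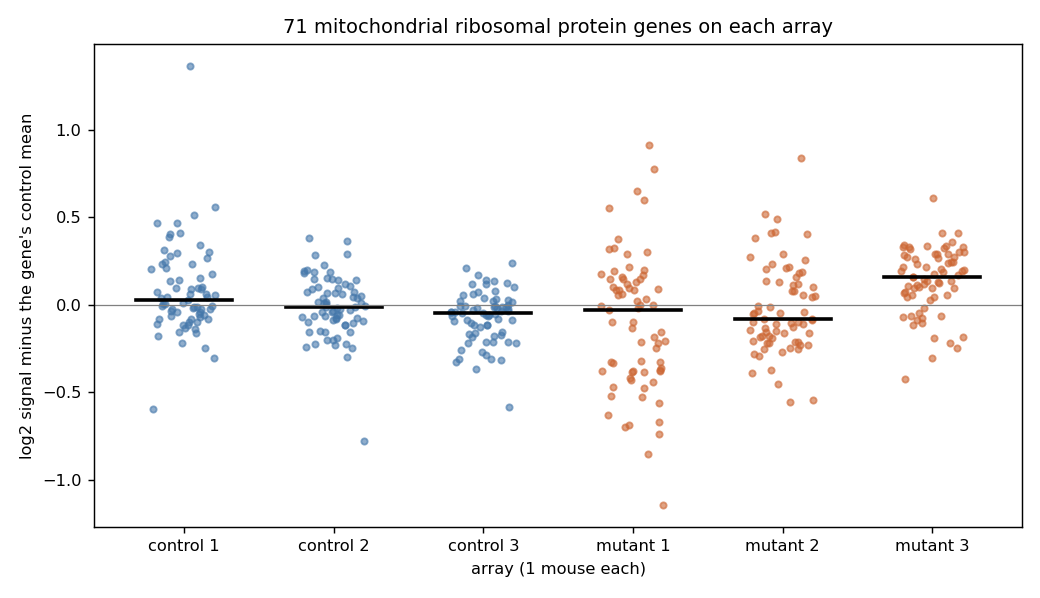
Each point is 1 of 71 genes on 1 array, as log2 signal minus the mean of that gene's 3 controls, and black bars are the median gene of the array. The medians lie between -0.08 and 0.16, with mutant 3 highest, and the points spread most widely on mutant 1.

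Exon usage was tested because the study is at exon level and concerns a helicase family with members in splicing. With 3 or more kept probe sets required, 69 of the genes were tested, and 0 passed in the diffSplice F-test of limma, against 0.210% of all genes. At an unadjusted p under 0.05 there were also 0, against 4.0%, and every adjusted p was 1. Without control 1, mutant 2 or mutant 3 the unadjusted count was 4, 3 and 3, against 4.61%, 6.65% and 6.8% of all genes. The smallest p was 0.114, for Mrpl30, followed by Mrpl32, Mrpl18 and Mrpl2. In Mrpl30, of the large subunit, probe set 5409601 lay at 6.17, 6.97 and 6.35 in controls and at 5.35, 5.37 and 6.37 in mutants, a difference of -0.80 (SE 0.37). Its other 3 probe sets differed by 0.00 to 0.23, and mutant 3 lay among the controls. In Mrpl32, which is matured by a protease of the inner membrane before it joins the ribosome, probe sets 4540642 (0.63, SE 0.29) and 4732853 (-0.77, SE 0.54) went opposite ways. Mutant 1 was the extreme array of both, at 8.21 and 3.84.

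In Mrpl18, a protein of the central protuberance, probe set 5353996 lay at 7.87, 8.10 and 7.70 in controls and at 4.72, 7.38 and 7.50 in mutants, and 4806751 at 8.03, 8.04 and 7.69 and at 5.66, 8.30 and 8.05. Both were far lower on mutant 1 than on any other array, mutants 2 and 3 also lay below every control for 5353996 but not for 4806751, and the other 4 probe sets of the gene differed by 0.10 to 0.26 in the other direction. In Mrpl2, a core protein near the peptidyl transferase centre, probe set 4918289 lay at 7.51, 7.59 and 7.45 and at 8.23, 7.94 and 7.97, with all mutants above all controls (0.53, SE 0.24). A probe set of the same gene, 4785634, lay at 4.17, 5.48 and 6.28 and at 2.80, 3.82 and 5.71, with wide overlap.

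Of the 462 probe sets 0 passed after adjustment over the 191663 kept, as 0% of all did in limma, and 3 had an unadjusted p under 0.05, against 4.07% of all. Without control 1, mutant 2 or mutant 3 that count was 11, 12 and 13, against 5.16%, 5.43% and 6.35% of all. The groups did not overlap for 10 with mutants higher (background 4.01%) and for 16 with mutants lower (background 4.44%). The mutant mean was higher for 53.5% of them and for 46.8% of all kept probe sets. A difference of at least 1 log2 unit was found upward in 2 (background 1.31%), in Mrpl20 and Mrpl21, and downward in 5 (background 1.93%), in Mrpl18, Mrpl2, Mrps35, Mrps7 and Mrps9. The smallest p, 0.0090, was that of 5204016 in Mrps9, at 4.94, 5.69 and 4.95 in controls and at 4.49, 3.95 and 3.27 in mutants. Here mutant 3 was lowest and mutant 1 nearest to the controls, unlike in the gene mean, and the difference was -1.29 (SE 0.38, adjusted p 0.994 in limma). In Mrps27, a pentatricopeptide repeat protein of the small subunit, 4923065 lay at 7.98, 7.98 and 7.34 and at 8.83, 7.98 and 8.91 (0.81, SE 0.34). Mutant 2 was level with the controls. In Mrps26, 5003447 lay at 6.76, 7.28 and 7.30 and at 8.06, 7.41 and 7.90 (0.68, SE 0.30), and in Mrpl1, 4428192 lay at 9.53, 9.70 and 9.82 and at 8.43, 9.14 and 9.38 (-0.70, SE 0.31). Neither pair of groups overlapped. Drops of at least 2 units below all other arrays occurred on mutant 1 for 3 of the 462 (0.649%, against 0.777% of all kept probe sets), in Mrpl18 and Mrps35, and for none on any other array. In Mrps35 that was 4704030, at 7.15, 7.91 and 7.71 in controls and at 3.79, 7.09 and 7.92 in mutants.

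Most neighbours that share a start region with these genes had a difference of the other sign. Of 24 pairs, 20 had both genes tested, and 5 of them (25%) differed in the same direction, whereas 59.7% of the 546 such pairs among all genes did. Mrpl43 differed by 0.12 (SE 0.16) and Twnk by -0.19 (SE 0.17). Mrps27 differed by 0.26 (SE 0.21) and Ptcd2 by -0.08 (SE 0.16). Between Mrps11 and Mrpl46, both members of the ribosome, the differences were 0.06 (SE 0.17) and -0.04 (SE 0.21). None of these 6 differences reached 2 SE, and the counts are given without a test. Among these 20 pairs 1 partner had an unadjusted p under 0.05 in limma, against 4.21% of all genes. That was Ppp1r10, a regulator of protein phosphatase and the neighbour of Mrps18b, with 755 bases between the start sites. It lay at 8.56, 8.01 and 8.43 in controls and 9.36, 8.82 and 9.03 in mutants (0.74, SE 0.21), whereas Mrps18b differed by 0.19. By promoter letters, the 22 tested genes with CCGGAAG had a median difference of 0.08 and the 40 without it -0.03. For GCCATNTT the medians were 0.07 (18 genes) and -0.03 (44), and for the NRF1 palindrome -0.09 (12) and 0.04 (50).

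Genes that act with the mitochondrial ribosome were described from lists of known function. Of 7 ribosomal proteins that the array names otherwise, 6 were tested, 1 with a higher and 5 with a lower mutant mean, with a median of -0.14 and none at an unadjusted p under 0.05. Chchd1, of the small subunit, differed by -0.29 (SE 0.20) and Gadd45gip1, of the large subunit, by -0.20 (SE 0.18). Without mutant 1 the median of this list was 0.01 (0.005). Mrpl42, which also carries an older name on the array, is outside the rule and was not in this list, so the counts and medians leave it out. Its difference was 0.21 (SE 0.20). Of 17 translation factors 15 were tested, with a median of -0.10 (0.04 without mutant 1) and none at that p. Mtrf1, a release factor, differed by -0.26 (SE 0.14), and Tsfm, the exchange factor of elongation factor Tu, by 0.29 (SE 0.17). For both of these genes the groups did not overlap, which makes 1 of the 15 higher (background 5.15%) and 1 lower (background 4.32%).

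Of 24 assembly and ribosomal RNA modification factors 20 were tested, with a median of 0.02. Tfb1m, which methylates the small subunit RNA, lay at 7.50, 7.46 and 7.39 in controls and at 7.69, 8.16 and 7.99 in mutants. Noa1, a GTPase of small subunit assembly, lay at 6.84, 6.81 and 7.04 and at 6.42, 6.46 and 6.57. The groups did not overlap for either gene, in opposite directions, which makes 1 of the 20 higher (background 5.15%) and 1 lower (background 4.32%). The differences were 0.50 (SE 0.17, unadjusted p 0.016) and -0.41 (SE 0.15, unadjusted p 0.022), and neither passed after adjustment over all genes in limma. These were the only genes of that list under an unadjusted p of 0.05, 2 of 20, against 4.21% of all genes. Of 17 mitochondrial aminoacyl-tRNA synthetases 15 were tested, with a median of 0.00 (-0.003) and none at that p. Tars2 differed by 0.31 (SE 0.17) and Pars2 by 0.25 (SE 0.17).

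Of 20 genes of mitochondrial transcription and DNA maintenance 19 were tested, with a median of -0.11 (-0.01 without mutant 1) and 1 under an unadjusted p of 0.05, against 4.21% of all genes. That was Ppargc1b, a coactivator of nuclear genes for mitochondrial proteins, at 7.16, 7.67 and 7.91 in controls and at 6.69, 6.64 and 7.22 in mutants. Mutant 3 lay just above control 1, and the difference was -0.73 (SE 0.24, unadjusted p 0.016). Its relative Ppargc1a lay at 6.10, 7.51 and 7.59 and at 5.07, 6.45 and 6.38, a difference of -1.1 (SE 0.48). Control 1 was below mutants 2 and 3. Tfam, which packages mitochondrial DNA, differed by -0.28 (SE 0.28), with mutant 1 at 7.43 and the other 5 arrays between 8.30 and 8.63.

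The median of the 71 genes lay between those of the ribosome of the cytosol and of the respiratory chain. The 34 cytosolic ribosomal protein genes tested, which translate nuclear messengers, had 25 higher and 9 lower mutant means and a median difference of 0.19, which was 0.10 without mutant 1. The 69 respiratory chain subunit genes were counted with those of ATP synthase, and most of their complexes include products of mitochondrial translation. They had 27 higher and 42 lower mutant means and a median of -0.07, which was 0.02 without mutant 1. With mutant 1 set aside, the mitochondrial ribosomal protein genes stood at 0.06 and all genes at 0.02. At an unadjusted p under 0.05 there was 1 cytosolic ribosomal gene of 34, higher, and 1 respiratory chain gene of 69, lower, against 2.01% of all genes higher and 2.20% lower. The differences between these lists were not tested.

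**Figure D5:**
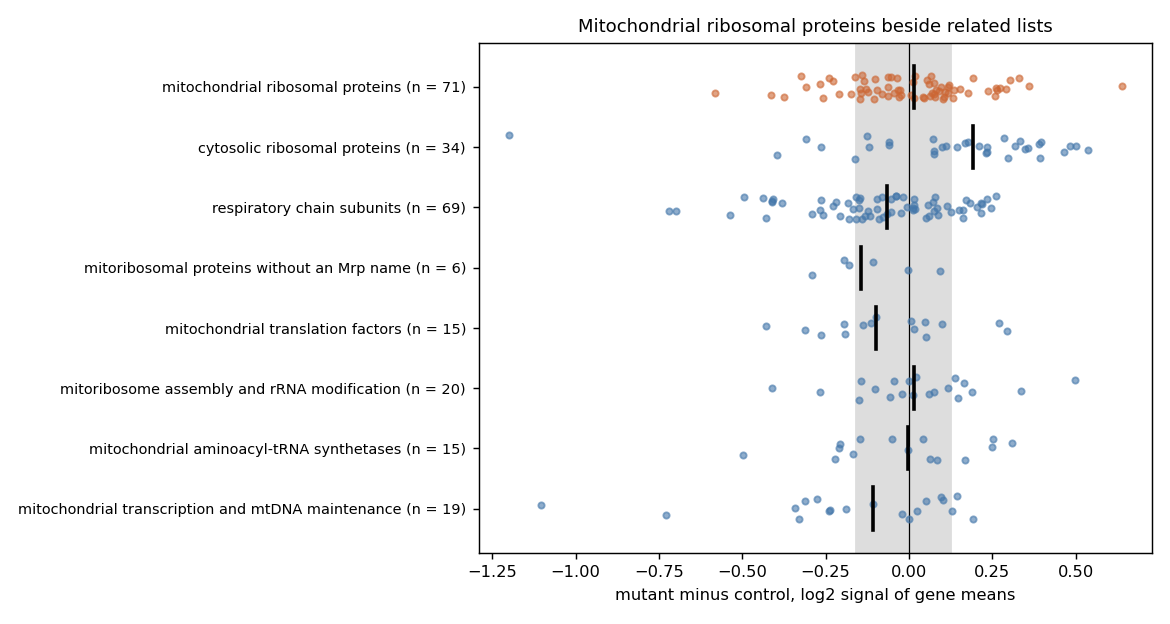
Difference in log2 signal of gene means, mutant minus control, for each gene (points) of the mitochondrial ribosomal proteins and 7 related lists, with black bars at the medians and n the genes tested. The grey band is the 25th to 75th percentile of all genes; the median of the mitochondrial ribosomal proteins (0.02) lies between those of the cytosolic ribosomal proteins (0.19) and the respiratory chain subunits (-0.07).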

How the data were processed

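The deposited table holds log2 signals, 1 per probe set and array, which the authors made with tools that the submitters' processing notes name as Affymetrix Expression Console 1.1, RMA and Partek 6.4, with build mm9 and without the role of each. RMA corrects background, draws the arrays to common quantiles and compresses differences of dim probe sets. The array medians of the deposited values were 6.73 to 6.95, so these values did not share 1 distribution across the arrays. Of 204531 probe sets 191663 were kept (log2 group mean of at least 3). Probe sets with 1 gene symbol in the platform annotation were named; older symbols were replaced through unique synonyms in RefSeq. RefSeq coordinates of GRCm38.p6 were used for promoters only. The arrays' number, 3 per group, limits the precision: an exact permutation test of 3 against 3 cannot go below 0.1.

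Gene means (15045 genes with 2 or more kept probe sets), probe sets and exon usage (diffSplice F-test, 14310 genes with 3 or more) were fitted across the whole table with limma 3.58.1 in R 4.3.3, mutant minus control, without covariates, with Benjamini-Hochberg adjustment over all features tested and a threshold of 0.05. Single p-values in the text come from these limma fits. Labels number the mice within each group, and p-values measure the spread between these samples. Whether the replicate numbers pair the samples was not settled. Deviations of same-numbered arrays from their group means correlated by 0.10, -0.11 and 0.18. They were not compared with those of differently numbered arrays. Genes named were the 6 of smallest p in each direction, the 4 of smallest p for exon usage, the 4 probe sets of smallest p, the Mrps18 paralogues, Mrps12, Mrpl12 and Mrpl45, the genes of lowest and highest spread, up to 2 of smallest p from each pathway list, up to 2 from a marker list that moved with a result, and Dhx32. Other genes named in passing, such as Mrps35, Tfam, Mrpl42 and the divergent neighbours, were chosen after their values were seen. The genes, lists and tests were chosen with earlier results of these data known. The steps were tested on simulated data, in which small shifts of single genes were mostly missed and the exon usage F-test called too many genes. Alternatives were other signal minimums, the median of probe sets, centring each array on its median, quantile normalization, trended and robust moderation, array weights, a replicate block and leaving out each array.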

Additional observations from a re-analysis of the deposited data

How the results depend on the processing

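No mitochondrial ribosomal protein gene passed the adjusted threshold in limma on gene means under any of the 15 alternatives run, and none passed for exon usage, nor any probe set, under the 14 that apply to them. At an unadjusted p under 0.05 the exon usage count (0) ran from 0 to 4 on leaving out 1 array and the probe set count (3) from 1 to 13, highest without control 1 for the first and without mutant 3 for the second. Genes higher at an unadjusted p under 0.05 (0) became 1 with no signal minimum, with a minimum of 5, with quantile normalization and with array weights, and 0 to 4 on leaving out 1 array, with 4 without control 1 (Mrpl20, Mrpl41, Mrpl51 and Mrps36; 5.63% in either direction, against 6.43% of all genes). Genes lower (1) became 2 with quantile normalization, median centring and array weights, 0 with a trend, and 0 to 4 on leaving out 1 array, with 4 without mutant 3 (Mrpl1, Mrpl14, Mrps22 and Mrps35; 5.63% against 9.0% of all genes). With the replicate number as a block the counts stayed at 0 higher and 1 lower, and no call changed for these genes. Over all genes the number past the threshold on gene means went from 1 to 0 with the block. The count of member probe sets at an unadjusted p under 0.05 in limma went from 3 to 7 (1.52%, against 4.89% of all). The median difference ran from -0.05 to 0.06 over the alternatives, less than 1 SD (0.10) of the mean of these genes between replicates. Median centring moved the split from 38 higher and 33 lower to 44 and 27, and leaving out mutant 1 to 48 and 23.

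Signs of small differences turned for 8 named genes: with the median of probe sets, Mrpl30 (0.13), Mrpl18 (0.23), Mrpl2 (-0.013), Mrps18a (-0.048) and Pars2 (-0.017); with array weights, Mrpl32 (-0.012) and Mrps18c (0.079); without mutant 3, Mrpl32; and without mutant 1, Mrps18c and Mrpl45. On leaving out 1 array at a time, these 3 ran over -0.033 to 0.166 (Mrpl32), -0.335 to 0.020 (Mrps18c) and -0.305 to 0.051 (Mrpl45). In Mrpl18 the mean is set by 2 probe sets that were low on mutant 1; for the others the cause was not tested. The limits are 3 arrays per group, 1 mutant array that stands apart, and signals that cannot be ranked between genes. Mrpl27 was not measured through a probe set of its own above the minimum.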
